A study of Mus musculus with 28 samples.

Results

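The genes described here encode the respiratory chain of mitochondria and the ATP synthase that it drives. Members were all genes whose symbol starts with Nduf, Uqcr, Cox4 to Cox8 or Atp5, and the mitochondrial genes mt-Nd, mt-Co, mt-Cyt and mt-Atp, with pseudogene symbols of the form -ps left out. This gave 107 members, 94 nuclear and 13 mitochondrial, among 35267 genes of the c-Kit+ table and 35429 genes of the table of HOXA9 lines. By complex the nuclear members were 41 genes of complex I and its relatives, 8 assembly factors of complex I (Ndufaf), 8 of complex III, 19 of complex IV and 18 of complex V. Annotation marks 4 of the nuclear members as processed pseudogenes (Cox6c2, Ndufa11b, Ndufb4c and Ndufs6b), and Atp5o is listed under 2 gene identifiers. Of the 13 mitochondrial genes, 7 belong to complex I, 1 to complex III, 3 to complex IV and 2 to complex V.

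The series concerns the retinal determination gene network (Eya genes and their homeobox partners) in acute myeloid leukaemia and its resistance to chemotherapy. All cells came from C57Bl/6 mouse bone marrow, as haematopoietic stem and progenitor cells (HSPCs) carrying the surface receptor c-Kit. In the c-Kit+ table, 3 groups were read with n = 2 libraries each: fresh cells, neither transduced nor cultured; empty-vector cells, transduced with a retrovirus without insert, sorted on GFP and grown for 4 days with cytokines, which the labels call differentiated; and MOZ-TIF2 cells, transduced with Ty1-tagged MOZ-TIF2, a leukaemia fusion protein, and sorted and grown in the same way. The line table holds c-Kit+ cells transduced with HOXA9, or with EYA1 and HOXA9, sorted by the fluorescent proteins of the vectors and then replated for 4 rounds in methylcellulose. Each of these lines was kept for 72 h in 5 µM benzarone, which blocks the phosphatase activity of EYA proteins, or in DMSO, its solvent (n = 3 each). Single-cell RNA came from a replated line of Ty1-tagged MOZ-TIF2, in DMSO for 1 or 5 days or in 5 µM benzarone for 1, 3 or 5 days. The transgenes are driven by retroviruses rather than by their own promoters, the fresh group differs from the other groups in both virus and culture, and the number of animals behind a library is not stated in the labels.

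The respiratory chain passes electrons from NADH and succinate to oxygen through complexes I to IV, and pumps protons as it does so; complex V uses the proton gradient to make ATP. Its subunits come from both genomes. The mitochondrial DNA is transcribed as long polycistronic RNAs from both strands, which are cut into messages. The nuclear genes are spread over the chromosomes and are classically linked to the transcription factors NRF1, GABP (which binds an ETS motif) and YY1. Haematopoietic stem cells are known to rely little on respiration, and progenitors and many myeloid leukaemias to rely on it more.

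The promoters of 6 members are shown because the results turn on them or because peaks of both lists described below touched them. Sequences are from RefSeq on GRCm38.p6, run 5′ to 3′ on the gene's strand from 250 bases before to 50 bases after the annotated start, and are 300 bases long. Capitals mark matches, on either strand, to the NRF1 motif (GCGCA, any base, then GCGC with no gap), the ETS motif CCGGAAG or the YY1 motif AANATGGC. Cox6a1 (chr5:115348909-115349208, minus strand), the usual form of a small complex IV subunit, has NRF1 matches from -162 (on both strands) and -117 and an ETS match from -16. Atp5c1 (chr2:10080383-10080682, minus strand, 1 of its 2 windows), the gamma shaft of the ATP synthase, has 1 NRF1 match from -17. Uqcrc1 (chr9:108936398-108936697, plus strand), a core protein of complex III, has NRF1 matches from 5 and 30 bases after the start. Ndufa6 (chr15:82354242-82354541, minus strand), which holds the acyl carrier protein in complex I, has 1 from base 23. Ndufa1 (chrX:37191189-37191488, minus strand) is a small membrane subunit of complex I. Cox7a2l (chr17:83514284-83514583, minus strand) has been linked to supercomplexes of complexes III and IV, a role not examined in these cells. Both have none of the 3 motifs in this window.
Cox6a1: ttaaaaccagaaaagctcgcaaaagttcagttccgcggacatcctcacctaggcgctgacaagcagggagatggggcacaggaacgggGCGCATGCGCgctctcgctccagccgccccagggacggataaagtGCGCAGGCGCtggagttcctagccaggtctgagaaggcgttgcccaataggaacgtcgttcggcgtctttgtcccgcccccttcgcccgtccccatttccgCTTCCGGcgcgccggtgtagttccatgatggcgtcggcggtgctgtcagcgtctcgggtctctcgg
Atp5c1: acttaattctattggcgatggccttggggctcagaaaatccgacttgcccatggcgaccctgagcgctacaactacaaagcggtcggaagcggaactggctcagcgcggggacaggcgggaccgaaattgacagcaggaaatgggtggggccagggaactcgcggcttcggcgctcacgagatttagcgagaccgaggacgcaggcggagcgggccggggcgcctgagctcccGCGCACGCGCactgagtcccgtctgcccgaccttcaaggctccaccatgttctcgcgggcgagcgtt
Uqcrc1: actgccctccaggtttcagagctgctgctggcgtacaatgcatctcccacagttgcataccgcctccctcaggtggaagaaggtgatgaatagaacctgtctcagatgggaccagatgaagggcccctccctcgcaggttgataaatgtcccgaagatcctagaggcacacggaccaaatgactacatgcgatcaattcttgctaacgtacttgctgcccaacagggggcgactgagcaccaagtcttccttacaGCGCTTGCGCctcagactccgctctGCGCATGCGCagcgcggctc
Ndufa6: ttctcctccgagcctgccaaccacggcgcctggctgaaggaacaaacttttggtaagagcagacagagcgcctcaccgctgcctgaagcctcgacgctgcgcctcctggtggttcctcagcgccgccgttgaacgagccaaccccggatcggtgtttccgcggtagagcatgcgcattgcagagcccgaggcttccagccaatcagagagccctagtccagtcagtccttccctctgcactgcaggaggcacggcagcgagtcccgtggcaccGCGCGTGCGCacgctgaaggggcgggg
Ndufa1: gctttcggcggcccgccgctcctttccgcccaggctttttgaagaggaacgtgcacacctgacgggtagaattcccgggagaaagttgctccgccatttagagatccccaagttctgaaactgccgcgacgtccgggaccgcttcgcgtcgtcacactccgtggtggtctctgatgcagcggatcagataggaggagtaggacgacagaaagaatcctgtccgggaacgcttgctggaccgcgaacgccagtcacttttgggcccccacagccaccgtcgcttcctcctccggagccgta
Cox7a2l: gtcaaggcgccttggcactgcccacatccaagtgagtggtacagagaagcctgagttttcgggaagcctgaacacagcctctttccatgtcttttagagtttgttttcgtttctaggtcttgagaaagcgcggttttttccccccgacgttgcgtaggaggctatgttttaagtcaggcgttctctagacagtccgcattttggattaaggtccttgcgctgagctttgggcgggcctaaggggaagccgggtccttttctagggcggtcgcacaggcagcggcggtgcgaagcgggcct

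A promoter was found in the RefSeq table for 73 of 93 nuclear symbols. The NRF1 motif was in 17 of these (23.3%), against 5.19% of the promoters of 27025 genes and 10.8% of those of 10642 genes tested in the c-Kit+ table. The YY1 motif was in 19 (26.0%, against 6.96% and 9.74%), and the ETS motif in 16 (21.9%, against 9.93% and 19.0%). The cyclic AMP element TGACGTCA was in 4 (5.48%, against 2.03% and 3.34%), and the E-box CACGTG in 6 (8.22%, against 8.09% and 11.4%). NRF1, ETS and YY1 motifs were all missing from 28 of the 73 windows, and 7 windows held more than 1 of them. These are letter matches, not bound sites.

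Binding of the tagged MOZ-TIF2 was read from 2 deposited peak lists (3676 and 4564 peaks) made in replated cells. The labels of the second list give it the catalogue number of the antibody used for acetylated histone H3, not that of the first list, so the 2 lists may not report the same target. Peaks of both lists touched the promoter windows of 8 members (11.0%), against 6.28% of all genes and 13.3% of tested genes. They were Atp5b, Atp5c1, Atp5g3, Atp5j and Atp5pb of complex V, Cox5a and Cox6a1 of complex IV, and the complex I assembly factor Ndufaf3. The start of Atp5c1 lay inside peaks of both lists, the start of Cox6a1 beside them, and Ndufa6 had a peak in the second list alone.

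Library totals ran from 12397486 and 15550960 counts in the fresh cells to 34463851 in the MOZ-TIF2 cells, and from 26340517 to 34606046 in the lines. Levels are counts scaled per 1e6 (CPM) scaled by TMM; they are not divided by gene length, so levels of different genes are not compared unless stated. Eya1 stood at 134 to 276 CPM in the 6 EYA1+HOXA9 libraries and at 0 to 0.03 in the 6 HOXA9 libraries. Hoxa9 differed between the lines too. In EYA1+HOXA9 it stood at 314 to 507 CPM in DMSO and 1238 to 1646 in benzarone. In HOXA9 it stood at 180 to 241 CPM in DMSO and 197 to 221 in benzarone. The 3 groups of the c-Kit+ table differed in marker genes of other cell types. The summed level of 14 erythroid markers was 6497 to 9700 CPM in fresh cells, 218 to 248 in empty-vector cells (with Slc4a1 at 0) and 4.72 to 5.57 in MOZ-TIF2 cells, where 8 of the markers were at 0. Mast cell markers (11 genes) summed to 58622 to 87154 CPM in empty-vector cells, 337 to 372 in fresh and 49.0 to 59.3 in MOZ-TIF2 cells. Granulocyte markers (11 genes) summed to 27225 to 28220 CPM in fresh, 13858 to 15704 in MOZ-TIF2 and 70.1 to 314 in empty-vector cells. Megakaryocyte (7 genes), B-lymphoid (10 genes) and monocyte (11 genes) sums also differed: 2484 to 2674, 3.34 to 9.61 and 1553 to 2426 CPM in empty-vector cells, 301 to 429, 779 to 831 and 2794 to 3389 in fresh cells, and 5.57 to 11.3, 5.46 to 5.76 and 262 to 1441 in MOZ-TIF2 cells. The part of cell composition in the results below was not tested, and in bulk samples fewer cells of a type and less RNA per cell cannot be told apart.

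Within the c-Kit+ table, nuclear respiratory genes together took the largest share of counts in fresh cells. Their summed share was 1.19% and 1.14% in the fresh libraries, 0.533% and 0.709% in the empty-vector libraries and 0.881% and 0.704% in the MOZ-TIF2 libraries. The fresh group lay above both others without overlap, while the other two overlapped. In the lines the share was 0.988% ± 0.097 (SD, n = 3) for EYA1+HOXA9 in DMSO and 0.916% ± 0.116 in benzarone, and 1.06% ± 0.10 for HOXA9 in DMSO and 1.04% ± 0.12 in benzarone, with overlap between every pair of groups. The mitochondrial genes behaved less evenly. They took 3.45% and 3.25% of counts in fresh cells and 2.54% and 2.32% in MOZ-TIF2 cells, but 4.17% in 1 empty-vector library and 1.22% in the other, a 3.42-fold gap within 1 group. In the lines the mitochondrial share ranged from 0.835% to 2.43% over 12 libraries. The ratio of the mitochondrial to the nuclear sum was 2.89 and 2.85 in fresh, 2.88 and 3.29 in MOZ-TIF2 and 7.82 and 1.72 in empty-vector libraries, and 0.716 to 3.04 in the lines.

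**Figure D1:**
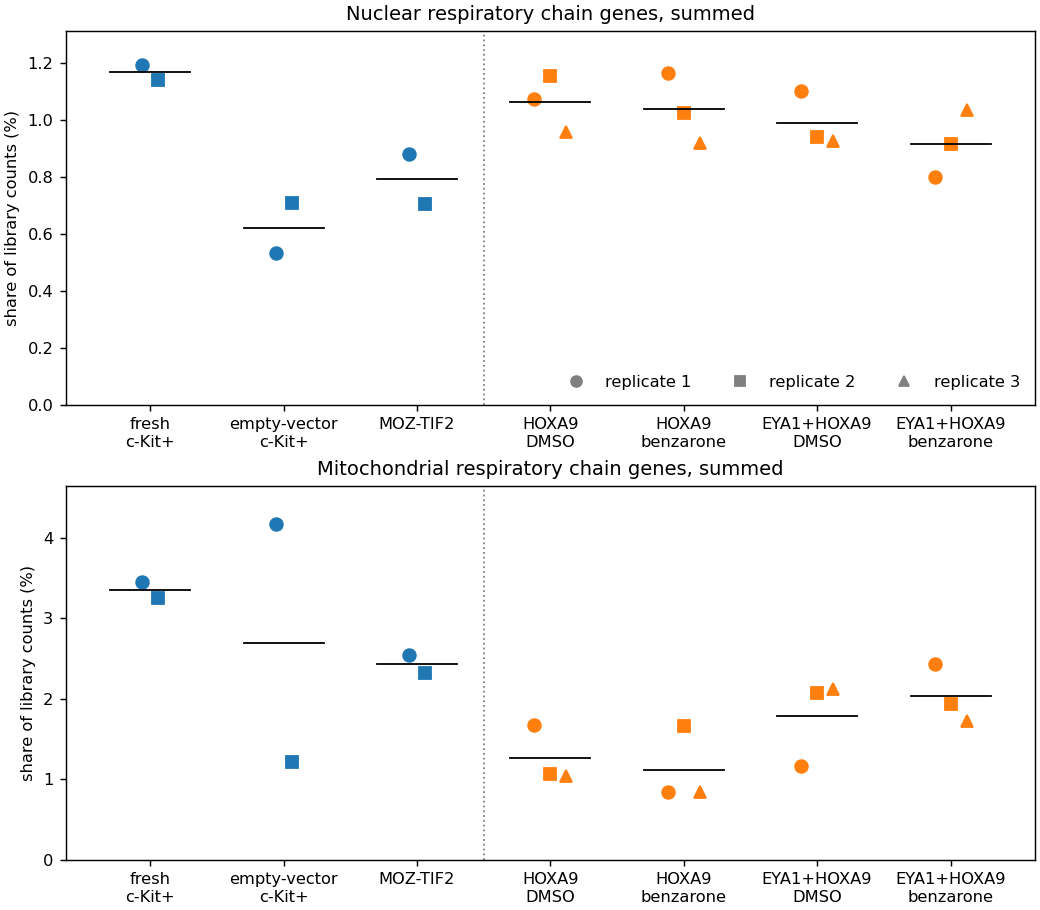
Share of all counts (%, y axis) of the nuclear members (top) and the 13 mitochondrial genes (bottom) in each bulk library, by group (x axis); lines are group means, markers replicates. Among the 6 c-Kit+ table libraries the nuclear share is highest in the 2 fresh ones, at 1.19% and 1.14%, and the 2 empty-vector libraries lie apart in mitochondrial share, at 4.17% and 1.22%.

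The comparison of empty-vector with fresh cells shows how these genes moved with transduction and culture without an oncogene. Nuclear respiratory genes fell: 26 of 87 tested were lower and 0 higher by edgeR's quasi-likelihood test (adjusted p under 0.05), with a median log2 difference of -0.53. Over all 15224 tested genes 40.7% were called, 19.7% of them lower and 21.0% higher, with a median of -0.03; the members' share of lower calls was 29.9%, and 74 of 87 had a negative difference. By complex, 14 of 38 tested genes of complex I were lower (median -0.62), 3 of 8 assembly factors (-0.71) and 3 of 8 of complex III (-0.75). In complex IV (3 of 15, median -0.39) and complex V (3 of 18, -0.54) the shares of lower calls were near or under the 19.7% of all genes, though their medians were negative too. None of the 13 mitochondrial genes was called (median -0.01).

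Ndufv1, the core subunit that takes the electrons of NADH, stood at 119.1 and 121.9 CPM in fresh and 36.7 and 61.0 in empty-vector libraries (log2 difference -1.30, adjusted p = 0.018). Uqcrc1 fell from 307.6 and 292.7 CPM to 95.1 and 137.9 (-1.36 ± 0.25 SE, adjusted p = 0.010). In both genes the groups were far apart relative to the gap between replicates. Ndufs8, an iron-sulfur core subunit of complex I, fell by 1.09 on the log2 scale and Ndufa10, an accessory subunit of its membrane arm, by 1.01. Among the assembly factors, Ndufaf4 stood at 34.7 and 32.1 CPM in fresh and 11.8 and 10.0 in empty-vector libraries (-1.62, adjusted p = 0.023), and Ndufaf6 at 10.0 and 10.7 against 2.29 and 3.87 (-1.75, adjusted p = 0.049). The ATP synthase genes called lower were Atp5k (-1.27), which encodes subunit e of the membrane part, Atp5g1 (-1.17), which encodes the c ring, and Atp5o (-1.04), which encodes the stalk protein OSCP.

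These counts rest on few libraries. Without the first empty-vector library 1 nuclear gene was lower and the median was -0.33; without the second, 22 were lower, 17 of them among the 26, and the median was -0.82. Without either fresh library 0 nuclear genes were called (Uqcrc1 had an adjusted p of up to 0.0847), while calls over all genes fell from 6198 to 1259 or 1555, in fits that assume the lone library to vary like the other groups.

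MOZ-TIF2 cells, against the same fresh cells, had 6 of 87 nuclear genes lower and 0 higher, fewer than the 12.4% called lower over all genes (23.7% called either way). The median log2 difference was -0.49 against 0.00 for all tested genes, and 79 of 87 members had a negative difference. MOZ-TIF2 and fresh libraries did not overlap for 65 nuclear members lower in MOZ-TIF2 and for 4 higher, against 36.3% and 34.6% of all tested genes. Medians by complex lay close together: -0.51 for complex I, -0.52 for its assembly factors, -0.47 for complex III, -0.37 for complex IV and -0.52 for complex V. Ndufaf7, a methyltransferase that modifies a complex I subunit during assembly, stood at 10.9 and 11.9 CPM in MOZ-TIF2 and 33.1 and 29.7 in fresh cells (-1.46 ± 0.23, adjusted p = 0.010). Cox6a1, whose promoter is shown above, stood at 116.1 and 97.8 against 211.4 and 202.4 CPM (-0.95 ± 0.26, adjusted p = 0.047). Ndufa10 (-0.86 ± 0.21), Ndufb10 (-0.85 ± 0.24) and Ndufs8 (-0.80 ± 0.20), all of complex I, were the other ubiquitous genes called lower, and the sixth was the isoform Cox6b2, described with the isoforms. The number of lower genes rose without the first MOZ-TIF2 library, and fell without the second or without either fresh library. Calls over all genes fell in each of these fits, which leave 1 library in a group. DESeq2 called 26 nuclear genes (24 lower and 2 higher). Over all 16213 genes it called 30.5%, of which 2506 were lower and 2445 higher.

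MOZ-TIF2 and empty-vector cells share virus and culture, so their comparison sets the oncogene against the empty vector. The 2 groups also differed in cell type markers, whose part was not tested. Mast cell markers summed to 49.0 to 59.3 CPM against 58622 to 87154, and granulocyte markers to 13858 to 15704 against 70.1 to 314. In this comparison 6 of 87 nuclear genes were higher and 4 lower, against 13.3% and 16.2% of all tested genes (29.5% either way). The median was 0.10 against 0.03 for all genes. The calls came from different complexes. Complex I had 3 genes higher and 2 lower, complex III had 2 higher, complex IV had 1 of each, the assembly factors had 1 lower, and 0 of 18 genes of complex V were called.

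Among the genes higher in MOZ-TIF2 cells, Uqcrq, a small subunit of complex III, stood at 140.6 and 175.9 CPM against 51.0 and 68.1 in empty-vector and 99.1 and 93.4 in fresh cells (1.41 ± 0.24 against empty vector, adjusted p = 0.009). Its MOZ-TIF2 libraries thus lay above those of both other groups. Ndufv3, an accessory subunit of the NADH-binding module, had the same order, with 117.8 and 100.1 CPM against 47.3 and 63.2 in empty-vector and 70.1 and 59.7 in fresh cells (0.98 ± 0.23, adjusted p = 0.025). Uqcrc1 (0.86 ± 0.25), Ndufab1, the mitochondrial acyl carrier protein (0.85 ± 0.25), and Ndufb8 of the membrane arm (0.75 ± 0.20) were also higher than with empty vector, but lay below both fresh libraries in each MOZ-TIF2 library: Uqcrc1 read 226.2 and 195.9 CPM in MOZ-TIF2, Ndufab1 46.1 and 32.1, and Ndufb8 102.8 and 99.0.

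Ndufa1, Ndufa6 and Cox7a2l, whose promoters are shown above, went the other way. Ndufa6 stood at 45.6 and 51.7 CPM in MOZ-TIF2, 98.9 and 109.9 in empty-vector and 82.7 and 72.7 in fresh libraries. Cox7a2l stood at 133.6 and 117.5, 240.4 and 260.8, and 192.7 and 177.0 CPM, and Ndufa1 at 42.5 and 33.7, 71.0 and 104.1, and 63.9 and 53.3 CPM. For all 3 genes the order was empty vector, fresh, MOZ-TIF2, with no overlap between neighbours; with 2 libraries a group such gaps are common, since 36.3% of all tested genes lay lower in MOZ-TIF2 than in fresh cells without overlap. MOZ-TIF2 against empty vector gave -1.10 ± 0.19 for Ndufa6 (adjusted p = 0.010), -0.997 ± 0.20 for Cox7a2l (0.015) and -1.20 ± 0.26 for Ndufa1 (0.020). Neither step beside fresh cells passed the test: MOZ-TIF2 against fresh had adjusted p of 0.051, 0.091 and 0.135, and empty vector against fresh 0.123, 0.125 and 0.123, in the same order of genes. The calls for Ndufa6 and Uqcrq were kept in all 6 other settings and with each library left out, with adjusted p between 1.39e-06 and 0.0388 and between 1.33e-06 and 0.042. That for Cox7a2l was lost without the second empty-vector library (adjusted p = 0.0517), and that for Ndufa1 also without the second MOZ-TIF2 library (highest adjusted p = 0.0734). The remaining calls, Ndufv3, Uqcrc1, Ndufab1, Ndufb8, Cox6a2 and the lower Ndufaf7 (-0.99, adjusted p = 0.023), were each lost without at least 2 of the 4 libraries left out in turn (highest adjusted p 0.0826 for Ndufaf7 to 0.179 for Ndufab1). The 3 comparisons of the c-Kit+ table share their groups in pairs, so their values are not independent of each other.

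**Figure D2:**
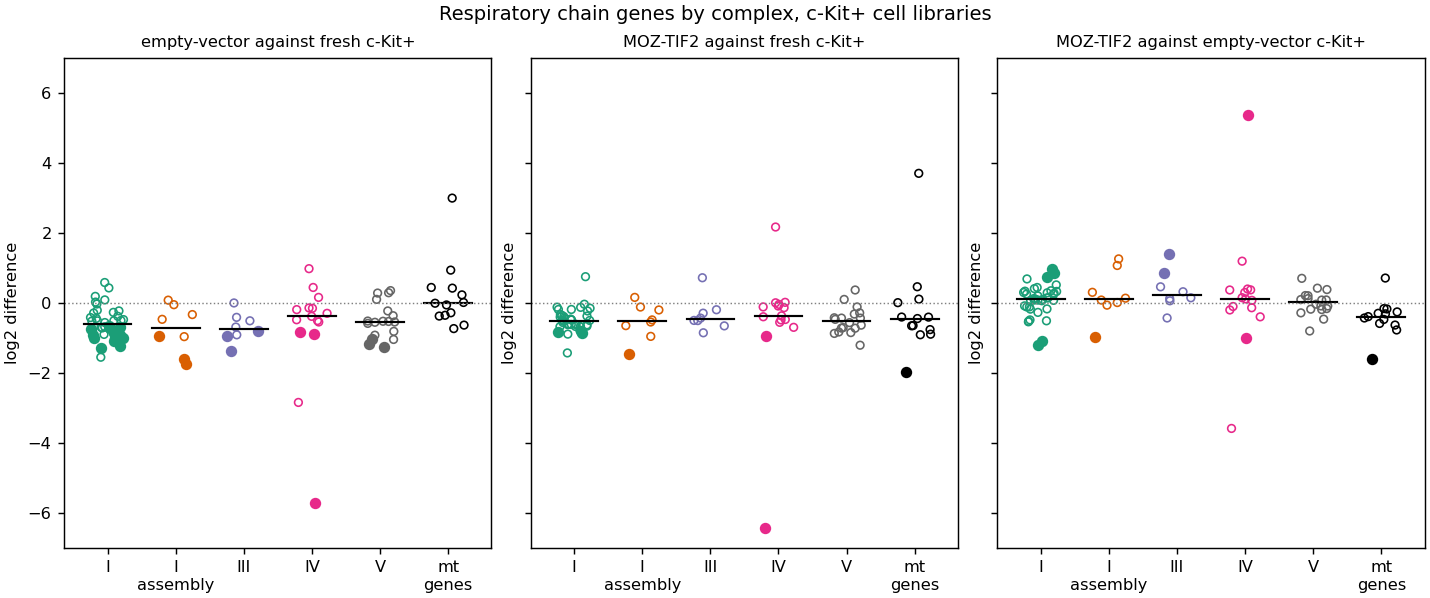
Log2 differences (y axis) of every tested member by complex (x axis) for empty vector against fresh, MOZ-TIF2 against fresh and MOZ-TIF2 against empty vector; filled points were called by edgeR and the short lines are medians. Both comparisons with fresh cells lie mostly below 0 in each nuclear group (medians -0.53 and -0.49 over all), while MOZ-TIF2 against empty vector lies around 0 (median 0.10).

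Several subunits of complex IV exist as pairs of isoforms, one made in most tissues and the other in heart and muscle, testis or hypoxic tissue. Cox6b2, the form known from testis, stood at 36.8 and 31.5 CPM in fresh cells, 1.39 and 8.02 in empty-vector cells and 0.082 and 0.700 in MOZ-TIF2 cells. The MOZ-TIF2 libraries lay below both other groups (-6.44 ± 1.22 against fresh, adjusted p = 0.017; -3.59 against empty vector, adjusted p = 0.055). Cox6b2 was at most 0.24 CPM in any line library. Its usual partner Cox6b1 stood at 144.3 and 97.1 CPM in MOZ-TIF2, 96.6 and 133.2 in empty-vector and 169.4 and 166.7 in fresh libraries, with overlap between the first 2 groups. Cox6a2, the heart and muscle form, was low everywhere: 5.61 and 2.97 CPM in fresh, 0 and 0.138 in empty-vector and 0.956 and 5.66 in MOZ-TIF2 libraries (-5.73 ± 1.40 for empty vector against fresh, adjusted p = 0.022; 5.36 ± 1.38 for MOZ-TIF2 against empty vector, adjusted p = 0.033). Cox7a1, the muscle form of Cox7a2, stayed between 0.058 and 2.18 CPM and was not called (2.17 for MOZ-TIF2 against fresh, adjusted p = 0.21). Cox4i2, known from lung and hypoxia, reached 0.59 CPM at most, Ndufa4l2, known from hypoxia, was too low to be tested, and Cox8b, Cox8c and Cox7b2 were at 0.

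The usual forms did not pass the test between MOZ-TIF2 and fresh cells, apart from Cox6a1. Cox4i1 stood at 359.4 and 304.4 CPM in MOZ-TIF2 and 382.9 and 324.4 in fresh libraries (-0.09, adjusted p = 0.81), and these overlapped. Cox8a stood at 136.3 and 118.8 against 223.0 and 191.9 CPM (-0.70, adjusted p = 0.076), and Ndufa4 at 122.6 and 70.2 against 150.4 and 144.9 (-0.62, adjusted p = 0.21). Atp5g1, Atp5g2 and Atp5g3 encode the same mature c-ring protein. Atp5g1 stood at 40.3 and 20.3 CPM in MOZ-TIF2, 17.4 and 19.9 in empty-vector and 43.0 and 41.1 in fresh libraries; Atp5g3 stood at 121.9 and 78.8, 69.8 and 104.5, and 162.5 and 168.8. Fresh cells had the highest values of both. For 2 pairs the split between a gene and its processed copy is uncertain: Ndufb4 stood at 1.46 to 3.73 CPM over the 6 libraries and its copy Ndufb4c at 38.6 to 66.9, and Cox6c and Cox6c2 are a pair of the same kind.

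The mitochondrial genes were measured at much higher counts, and 2 of the 3 groups were tight. mt-Co1, the catalytic subunit of complex IV, stood at 7701 and 7333 CPM in MOZ-TIF2 and 7268 and 6711 in fresh libraries, but at 15455 and 3247 in the empty-vector libraries. mt-Nd5 of complex I also differed between the empty-vector libraries: it stood at 1525 and 1192, 1464 and 1245, and 3131 and 541 CPM in the same order. The empty-vector libraries differed 1.33-fold in mt-Co3 and 1.36-fold in mt-Nd3, and from there up to 5.79-fold in mt-Nd5. In mt-Nd6, the only one of these genes on the other strand, they stood at 43.6 and 0.588 CPM, a ratio of 74.1 from 912 and 17 counts. Ratios between the MOZ-TIF2 libraries were 0.856 to 2.54, and between the fresh libraries 0.792 to 1.34 except for mt-Nd6 (2.68). The gap in the empty-vector group was therefore not the same for every mitochondrial gene.

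mt-Nd3, a membrane subunit of complex I, was the only mitochondrial gene called in these comparisons. It stood at 35.7 and 14.1 CPM in MOZ-TIF2, 86.8 and 64.1 in empty-vector and 99.0 and 97.1 in fresh libraries, with MOZ-TIF2 below both (-1.98 ± 0.45 against fresh, adjusted p = 0.027; -1.60 ± 0.44 against empty vector, adjusted p = 0.040). Neither call held without either library of the other group (highest adjusted p 0.156 and 0.145). The median of the 13 genes was -0.45 for MOZ-TIF2 against fresh and -0.39 against empty vector. Which empty-vector library is used decides the sign of the latter: without the first the median was 0.77 with 4 genes higher, and without the second it was -1.04 with 7 lower. Empty vector against fresh likewise gave -1.28 with 7 lower without the first and 0.61 with 4 higher without the second. mt-Nd6 stood at 49.2 and 22.8 CPM in MOZ-TIF2 and 4.06 and 1.51 in fresh libraries. Libraries were made from poly(A) RNA, so differences in tail length between mitochondrial messages can enter these values, which was not tested.

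**Figure D3:**
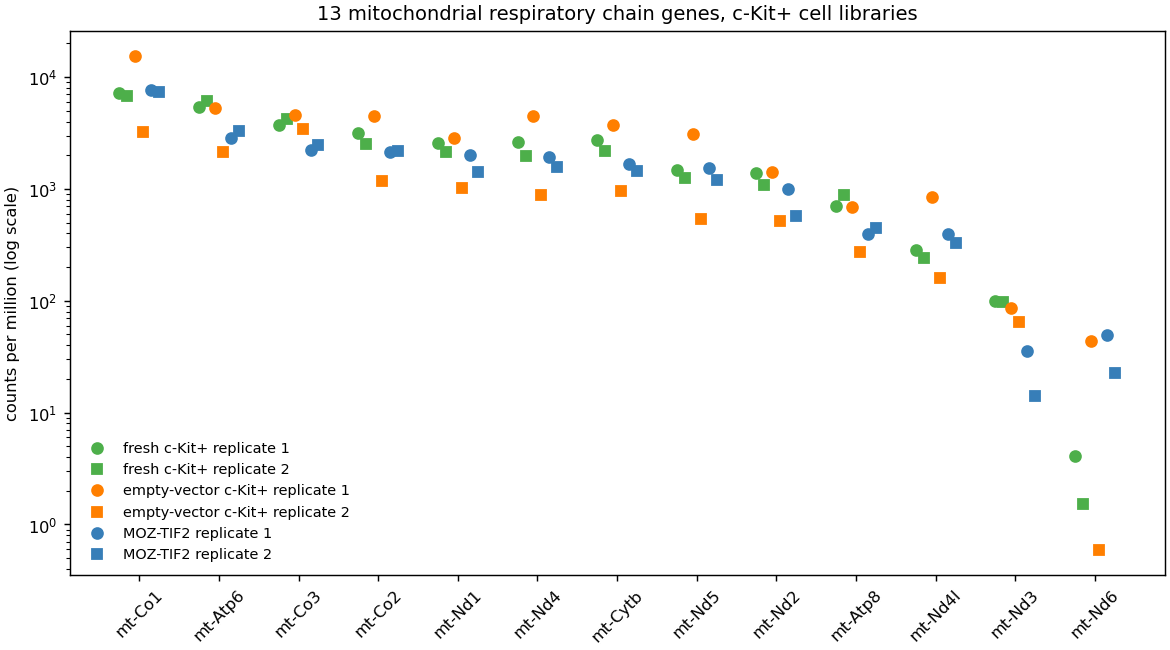
CPM (log axis) of the 13 mitochondrial genes (x axis) in the 6 libraries of the c-Kit+ table; each marker is a library, by group. The MOZ-TIF2 and fresh libraries lie in pairs for most genes, while the empty-vector libraries lie apart, for example at 15455 and 3247 CPM in mt-Co1 and at 43.6 and 0.588 in mt-Nd6.

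Divided by gene length, the order of the mitochondrial genes was much the same in all 18 bulk libraries. The median per kilobase was 3484 CPM for mt-Atp6, 3477 for mt-Co1, 2607 for mt-Co3, 2480 for mt-Co2, 1712 for mt-Atp8, 1563 for mt-Nd1, 1197 for mt-Cytb and 1017 for mt-Nd4. Lower down came mt-Nd4l (796), mt-Nd2 (652), mt-Nd5 (646), mt-Nd3 (282) and mt-Nd6 (12.2). By these medians the genes of complexes IV and V stood above those of complex I, although the genes of the main strand are transcribed together. In single libraries mt-Nd1 could stand above mt-Atp8, as in the first MOZ-TIF2 library (2122 against 1952 CPM per kilobase) and all 3 EYA1+HOXA9 libraries in DMSO. mt-Cytb had rank 7 in every library, mt-Atp6 rank 1 or 2 and mt-Nd6 rank 12 or 13; neighbours such as mt-Atp6 and mt-Co1, or mt-Nd2 and mt-Nd5, had nearly equal medians.

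In the lines, EYA1+HOXA9 was set against HOXA9 in DMSO. Besides Eya1, Hoxa9 was higher in EYA1+HOXA9 (0.92, adjusted p = 0.005 by edgeR), so this comparison does not isolate EYA1. The part of the Hoxa9 level was not tested. Of 86 tested nuclear genes 5 were lower and 0 higher, against 10.8% and 12.1% of 13375 tested genes (22.9% either way). The median was -0.27 against -0.01 for all genes, and 78 of 86 had a negative difference. The called genes were Uqcrc1 (-0.57 ± 0.14, adjusted p = 0.014) and Uqcrb (-0.52 ± 0.15, 0.028) of complex III, Ndufs8 (-0.58 ± 0.18, 0.039) and Ndufa13 (-0.55 ± 0.14, 0.013) of complex I, and its assembly factor Ndufaf3 (-0.58 ± 0.15, 0.015). Uqcrc1 stood at 256.9, 212.3 and 200.0 CPM in EYA1+HOXA9 and 330.0, 378.9 and 284.1 in HOXA9, without overlap. Ndufaf3 stood at 19.5, 14.0 and 13.7 against 22.2, 25.9 and 22.5. Ndufs8 stood at 60.8, 47.6 and 45.9 against 83.2, 84.7 and 63.3. The number of calls moved with single libraries: it was 0 without the second or the third EYA1+HOXA9 library or the second HOXA9 library, 3 without the first HOXA9 library, 8 without the third, and 19 (18 of them lower) without the first EYA1+HOXA9 library. Calls over all genes moved in these fits too, from 1735 to 3486, against 3061 in the main fit. Marker sums also differed between the lines, with granulocyte markers at 7558 to 8022 CPM in EYA1+HOXA9 and 13857 to 15505 in HOXA9, and their part was not tested.

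In benzarone, the same comparison gave 1 nuclear gene higher and 3 lower, with a median of -0.21, where 15.2% of all genes were higher and 10.1% lower (25.3% either way). Ndufv3 was lower, at 92.3, 96.4 and 106.1 CPM in EYA1+HOXA9 and 160.2, 126.4 and 145.2 in HOXA9 (-0.55 ± 0.12, adjusted p = 0.005), and this call was kept in all other settings and with each library left out. Ndufaf3 (-0.54, adjusted p = 0.018) and Ndufaf4 (-0.63, adjusted p = 0.042) were also lower, and the libraries of Ndufaf4 overlapped, with 27.8 CPM in 1 EYA1+HOXA9 library and 27.3 in 1 HOXA9 library. Cox7a2l was higher (0.49 ± 0.13, adjusted p = 0.014), a call lost without the second or the third HOXA9 library (highest adjusted p = 0.0621); Ndufaf3 and Ndufaf4 were lost without 3 and 4 of the 6 libraries in turn (0.0639 and 0.150). Between the lines in benzarone 10 of 11 granulocyte markers were lower in EYA1+HOXA9 (median -2.72; sums of 5102 to 6821 against 12520 to 15598 CPM) and 6 of 10 monocyte markers higher (median 1.56; 962 to 2132 against 392 to 726), and their part was not tested. The mitochondrial genes leaned the other way from the nuclear ones: 12 of 13 had a positive difference in benzarone (median 0.89) and all 13 in DMSO (median 0.39). In DMSO, however, the libraries of the lines overlapped in every 1 of these genes, and 0 had an unadjusted p under 0.05 by edgeR. As they are transcribed together, the 13 are not separate observations. Called in benzarone were mt-Nd5 (1.15 ± 0.38, adjusted p = 0.043), mt-Nd4 and mt-Nd4l, and in DMSO none. mt-Nd5 stood at 1909, 1511 and 1166 CPM against 424.8, 1143 and 500.3, so a single HOXA9 library came near the other line. Without that library 10 genes were called (median 1.40); without the third EYA1+HOXA9 library 2 were called, and without any 1 of the others 0.

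Benzarone against DMSO in the EYA1+HOXA9 line raised 4 nuclear genes and lowered 2, against 17.0% and 12.4% of all genes (29.4% either way), with a median of 0.03. The 4 that rose were Ndufa1, Cox7a2l, Ndufa6 and Ndufa8. All but Ndufa8 were also called lower in MOZ-TIF2 than in empty-vector cells, while Ndufaf7, lower there too, was not called here. How often all genes have this pair of calls was not counted, so the overlap is not read as a trait of the members. Ndufa1 stood at 49.5, 46.7 and 42.3 CPM in DMSO and 68.6, 70.8 and 70.5 in benzarone (0.60 ± 0.14, adjusted p = 0.006). Cox7a2l stood at 137.7, 160.8 and 165.5 and then 213.5, 214.5 and 215.0 (0.47 ± 0.13, adjusted p = 0.016). Ndufa6 stood at 65.4, 64.3 and 60.3 and then 73.3, 84.9 and 86.4 (0.36 ± 0.11, adjusted p = 0.027). In each of the 3 genes every benzarone library lay above every DMSO library, as was so for 25.2% of all tested genes. Ndufa8, an accessory subunit of complex I, rose from 69.5, 52.5 and 49.3 CPM to 76.6, 82.9 and 75.9 (0.46 ± 0.16, adjusted p = 0.043).

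Both genes that fell were low. Atp5s, coupling factor B, stood at 5.92, 5.65 and 6.56 CPM in DMSO and 3.35, 4.15 and 4.33 in benzarone (-0.62 ± 0.21, adjusted p = 0.042), and is named after its values were seen. Cox6a2 stood at 0.07, 3.75 and 4.23 and then 0.24, 0.25 and 0.50 (-3.02 ± 0.94, adjusted p = 0.030), with overlap. mt-Nd6 was called lower among the mitochondrial genes, at 6.09, 13.5 and 14.4 CPM in DMSO and 6.47, 4.59 and 5.62 in benzarone (-1.02 ± 0.35, adjusted p = 0.044), also with overlap; the median of the 13 was 0.35. The call for Ndufa1 was kept in all other settings and with each library left out (adjusted p 0.000269 to 0.0364), and that for Cox7a2l was lost only without the first DMSO library (0.0519). Ndufa6 was lost without the second or the third library of either treatment (highest adjusted p = 0.108), Ndufa8 and mt-Nd6 without 5 of 6 libraries in turn (0.176 and 0.170), Cox6a2 without 4 (0.110) and Atp5s without any 1 of the 6 (0.136). Monocyte markers summed to 640 to 851 CPM in DMSO and 962 to 2132 in benzarone in this line (6 of 10 tested markers higher and 1 lower), and granulocyte markers to 7558 to 8022 and 5102 to 6821 (1 of 11 higher and 4 lower); their part was not tested.

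In the HOXA9 line, 0 nuclear and 0 mitochondrial genes were called, and 0.0% of the 13375 genes tested. Without adjustment 232 genes of the table (1.73%) had p under 0.05 by edgeR, 0 of them members; DESeq2 called 14 genes of the table and edgeR with replicate number as a block 6. The medians were -0.03 for nuclear and -0.17 for mitochondrial genes. Ndufa1 in this line stood at 60.7, 59.7 and 52.2 CPM in DMSO and 77.9, 55.9 and 54.1 in benzarone, and Cox7a2l at 150.1, 159.0 and 140.1 and then 183.9, 140.7 and 132.3, both with overlap. The difference between the lines was tested as an interaction, in which 0 members were called (7.54% of all genes). For Ndufa1 it was 0.48 ± 0.19 (adjusted p = 0.154), for Cox7a2l 0.45 (0.161) and for Ndufa6 0.37 (0.170), so the lines are not shown to differ in these genes.

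**Figure D4:**
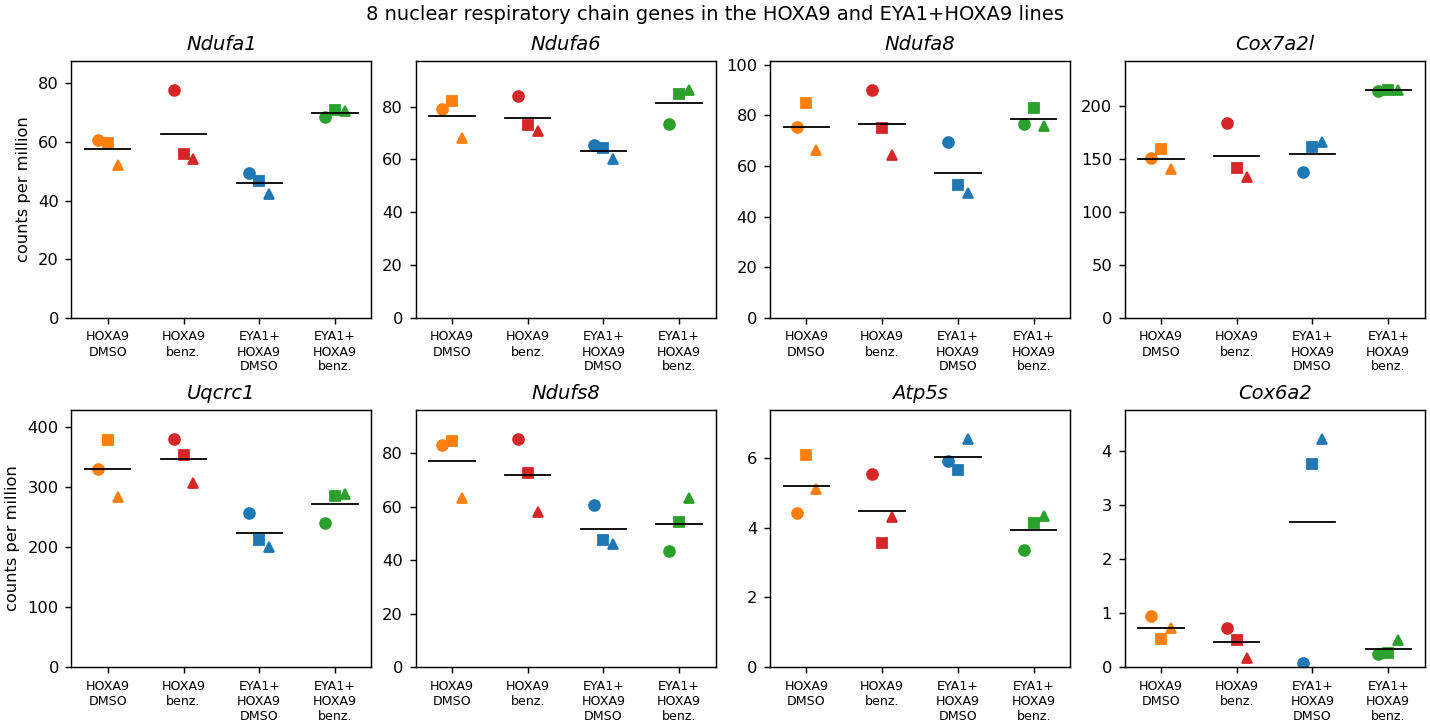
CPM (y axis) of 8 nuclear members in the 4 groups of the lines (x axis); points are the 3 replicates and lines group means. Ndufa1, Ndufa6, Ndufa8 and Cox7a2l are higher in benzarone than in DMSO in EYA1+HOXA9, and overlap between the treatments in HOXA9.

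The single-cell tables gave the same genes in a replated MOZ-TIF2 line over 5 days of benzarone. They list part of the genes only, 94 members of 9448 genes for days 1 and 3 (81 of them nuclear) and 97 of 11662 for day 5 (84 nuclear), and all 13 mitochondrial genes. Cells numbered 883 in DMSO and 826 in benzarone on day 1, 829 in benzarone on day 3, and 1662 and 1496 on day 5. Conditions shared at most 3 cell barcodes. Each condition of days 1 and 3 is a single sample, and both day 5 conditions come from 1 sample, whose cells were told apart by hashtags, so there is no test; ratios of summed unique molecular identifiers (UMIs), as CPM, carry exact 95% intervals for counting error only, and a ratio past 1.3 either way at 20 CPM or more is called a change in level.

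On day 1, 0 of 76 nuclear genes passed the fold of 1.3 between benzarone and DMSO, where 2.28% of 4699 genes did (1.66% higher and 0.617% lower); the median ratio was 1.009 against 1.019 for all genes. The extremes were Atp5f1 (1.24), Ndufa9 (1.21), Uqcrc1 (1.18) and Atp5h (1.15) above, and Atp5k (0.833), Ndufa3 (0.866), Atp5e (0.879) and Uqcr11 (0.880) below. All 12 mitochondrial genes at this level were below 1 (median 0.914), and mt-Nd4l passed the fold at 0.757 (interval 0.703 to 0.815). From day 1 to day 3 in benzarone, 0 of 76 nuclear genes and 0 of 12 mitochondrial genes passed, against 9.53% of all genes. Median ratios were 0.962 and 0.991, against 0.946 over all genes. Highest were Ndufa1 (1.16), Atp5e (1.12), Atp5j (1.09) and Ndufa13 (1.09), and lowest Uqcrc2 (0.780), Ndufaf6 (0.808), Atp5g3 (0.819) and Ndufs1 (0.826).

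On day 5 nuclear respiratory genes were lower in benzarone: 42 of 77 were lower past that fold (54.5%) and 0 higher. At this time 70.8% of all genes had passed the fold, 42.5% lower and 28.3% higher, and the median ratio was 0.743 for the nuclear members and 0.861 for all genes. The assembly factors of complex I had the lowest median (0.456, 5 of 6 lower), followed by complex III (0.703, 6 of 8), complex V (0.745, 8 of 15), complex I (0.748, 20 of 37) and complex IV (0.888, 3 of 11). Nuclear members made up 3.61% of UMIs in DMSO and 3.58% in benzarone on day 1, 3.47% in benzarone on day 3, and 3.94% in DMSO and 3.07% in benzarone on day 5. The mitochondrial share was 2.31%, 2.13%, 2.17%, 2.50% and 2.25% in the same order.

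Ndufaf7 stood at 16.7 CPM in DMSO and 18.5 in benzarone on day 1, 14.5 in benzarone on day 3, and 24.4 in DMSO and 9.09 in benzarone on day 5, a ratio of 0.372 (0.326 to 0.424). Ndufaf6 (0.403, interval 0.361 to 0.449), Ndufaf4 (0.423, 0.396 to 0.452) and Uqcrc1 (0.475, 0.460 to 0.490) were the next lowest on day 5. Uqcrc1 stood at 235.1, 276.6, 237.1, 349.2 and 165.9 CPM in the same order as Ndufaf7. Its DMSO value was thus higher on day 5 than on day 1. However, day 5 is a separate sample with its own list of genes (11662 against 9448), so day and sample cannot be told apart. All 3 genes of the c ring were lower, with ratios of 0.596 for Atp5g1, 0.612 for Atp5g2 and 0.669 for Atp5g3. Cox4i1 had a ratio of 0.743 and Ndufa4 of 0.629, while Cox6a1 (1.02), Cox8a (0.973) and Cox7a2 (0.937) stayed near 1.

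The highest ratios were those of Ndufa1 (1.24, interval 1.19 to 1.28), Atp5e, the epsilon subunit of the ATP synthase (1.21, 1.19 to 1.24), Cox7a2l (1.17, 1.14 to 1.20) and Ndufa13 (1.03, 1.01 to 1.05). Ndufa1 stood at 160.9, 155.2, 180.3, 155.7 and 192.3 CPM in the order given above. Ndufa1 and Cox7a2l are also genes that rose with benzarone in the EYA1+HOXA9 line, but Ndufa6, which rose there too, had a ratio of 0.778 (0.756 to 0.801). None of these passed the fold of 1.3 upward.

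Mitochondrial genes split on day 5. Of 12 at 20 CPM, 4 were lower past the fold (33.3%) and 0 higher, against 42.5% and 28.3% of all genes. Lower in benzarone were mt-Nd5 (ratio 0.564, interval 0.539 to 0.590), mt-Nd1 (0.630, 0.625 to 0.636), mt-Nd4l (0.634, 0.580 to 0.691) and mt-Atp8 (0.755, 0.682 to 0.836), while mt-Co1 was at 1.16 (1.155 to 1.172), mt-Nd4 at 1.05 and mt-Atp6 at 0.983. Between these lay mt-Co2 (0.953), mt-Cytb (0.873), mt-Nd3 (0.860), mt-Co3 (0.798) and mt-Nd2 (0.786). The median was 0.829, near the 0.861 of all genes. Genes of the same long transcript thus had different ratios. However, mt-Nd4l and mt-Nd4 overlap on the mitochondrial DNA (positions 9877 to 10173 and 10167 to 11544), as do mt-Atp8 and mt-Atp6. The ratios within these pairs therefore need not be those of separate messages, and how reads were shared between overlapping genes was not tested. Median UMIs per cell were 24575.5 in DMSO and 19763 in benzarone on day 5 and 42565 to 44761.5 in the earlier conditions. Monocyte markers summed to 19999 CPM in benzarone on day 5 against 1078 in DMSO, 3065 in benzarone on day 3 and 916 to 996 on day 1, and megakaryocyte markers to 7446 against 218; their part in the day 5 ratios was not tested.

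**Figure D5:**
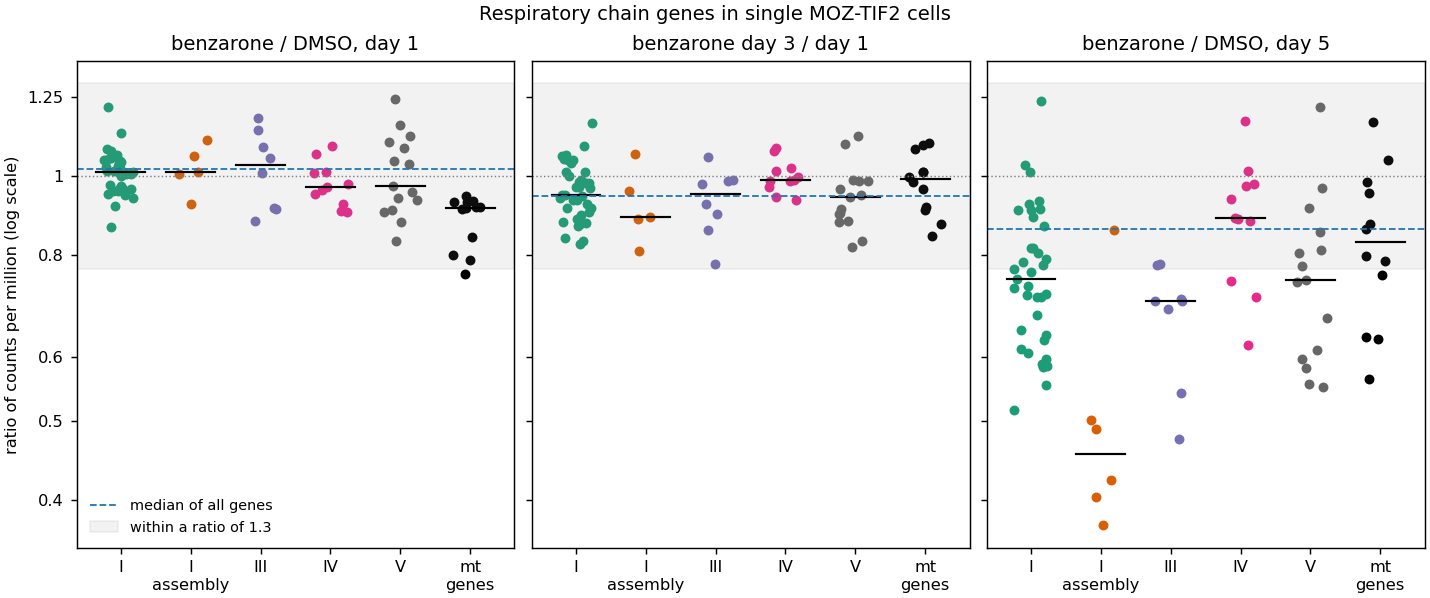
Ratios of CPM (log axis) of each member by complex (x axis) for benzarone against DMSO on day 1, benzarone day 3 against day 1, and benzarone against DMSO on day 5; the grey band is within 1.3-fold, short lines are medians and the dashed line the median of all genes. Members lie inside the band on days 1 and 3 except mt-Nd4l on day 1 (0.757), and spread downward on day 5, lowest in the assembly factors (median 0.456).

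Other genes of mitochondrial respiration were taken from fixed lists: mitochondrial ribosome, TCA cycle and pyruvate dehydrogenase, complex II, cytochrome c and coenzyme Q, assembly and insertion factors, transcription and processing of mitochondrial RNA, and nuclear regulators. In empty-vector against fresh cells most of these lists held lower genes. The mitochondrial ribosome had 53 of 78 tested genes lower and 0 higher (median -1.04), against the 19.7% of all genes called lower; the TCA list had 11 of 16 lower (-0.87), cytochrome c and coenzyme Q 7 of 15 (-0.78), and mitochondrial RNA genes 8 of 20 (-0.64). The list of further assembly factors (those of complexes I, III, IV and V that are not members) had 1 higher and 3 lower of 39, and complex II 0 of 8. Of the regulators, Nrf1 (-0.88, adjusted p = 0.014) and Myc (-1.51, adjusted p = 0.039) were lower.

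MOZ-TIF2 against empty vector had higher genes in most of the lists, beside 13.3% higher and 16.2% lower over all genes: 20 of 78 genes of the mitochondrial ribosome were higher and 1 lower (median 0.61), 4 of 16 TCA genes were higher (0.59), 5 of 15 of the cytochrome c and coenzyme Q list (0.64) and 4 of 20 of mitochondrial RNA (0.56), and none of the last 3 lists had a lower gene. Pdss1, which makes the tail of coenzyme Q, was higher by 2.45, Hsd17b10, a part of the enzyme that cuts mitochondrial tRNAs, by 2.27, Pdha1 of pyruvate dehydrogenase by 1.62 and Myc by 1.59 (adjusted p = 0.043). Against fresh cells MOZ-TIF2 had few calls in any list: 1 higher and 2 lower of 78 for the ribosome (median -0.42), and 0 for the TCA, coenzyme Q and mitochondrial RNA lists. Complex II had Sdhb, its iron-sulfur subunit, lower against fresh (-0.93), and Sdhd higher (0.80) and its assembly factor Sdhaf2 lower (-0.96) against empty vector.

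In the lines fewer list genes were called. With benzarone in EYA1+HOXA9, where 12.4% of all genes were called lower and 17.0% higher, 6 of 78 genes of the mitochondrial ribosome, 4 of 15 of the coenzyme Q list, 7 of 39 further assembly factors, 3 of 20 of mitochondrial RNA, 1 of 16 of the TCA list and 1 of 8 of complex II were lower, and 0 were higher. The shares of the ribosome and TCA lists thus lay below that of all genes, and the medians of these lists lay between -0.27 (coenzyme Q) and 0.04 (complex II). The list of regulators had 4 of 11 tested genes lower and 1 higher (median -0.33). Of the regulators, Ppargc1a, a coactivator that drives mitochondrial genes in muscle and fat, rose to 4.97, 7.07 and 7.09 CPM from 0.067, 1.57 and 0.101 (3.42), and Myc fell to 125, 162 and 204 CPM from 306, 402 and 449 (-1.24), with Pprc1 (-0.75) and Gabpa (-0.33) also lower. In HOXA9 benzarone changed 0 genes of any list. The interaction was called, among 4.71% of all genes higher and 2.83% lower, for Myc (-1.17, adjusted p = 0.032), Pdss2 (-1.28, 0.009) and Acad9, an assembly factor of complex I (-0.55, 0.040). In single cells on day 5, where 42.5% of all genes were lower and 28.3% higher, 61 of 75 mitochondrial ribosome genes were lower and 1 higher (median ratio 0.595), as were 11 of 16 TCA genes (0.579), 8 of 10 coenzyme Q genes (0.568) and 7 of 8 of mitochondrial RNA (0.567), beside a median of 0.743 for the nuclear subunits; Myc was at 0.454. Further assembly factors had 10 of 24 lower and 2 higher (0.823), and complex II 4 of 8 lower (0.799), shares near that of all genes. On day 1 no gene of any list passed the fold.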

How the data were processed

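Bulk RNA was read from 18 libraries, and single-cell RNA from 5 conditions. Values in the bulk tables are estimated counts, deposited without normalization, and Salmon 0.13.0 is named per the submitters' processing notes. They were rounded to whole numbers, which changed 23.8% of values in the c-Kit+ table and 23.3% in the line table. The single-cell tables hold whole UMI counts per gene and cell as deposited, with Cell Ranger 3.0.0 named per the submitters' processing notes. Bowtie2 and GRCm38 (mm10) are named there too, and the settings for strand and for multiply mapping reads are not given in the sources used here. The peak lists hold intervals without scores. Their positions lie on a 50 bp grid, which leaves 1 bp of doubt.

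Each bulk table was analysed in R 4.3.3 with edgeR 4.0.16. Genes were kept by filterByExpr (15224 of 35267 and 13375 of 35429), scaled by TMM and fitted over all groups of the table. Tests were two-sided quasi-likelihood F tests with Benjamini-Hochberg adjustment over all genes and a threshold of 0.05; ± after a log2 difference is its SE. Of the members 87 and 86 nuclear and all 13 mitochondrial genes passed this filter. DESeq2 1.42.0, RLE size factors, no filter, library sizes without mitochondrial genes, only the groups compared, a replicate block and each library left out were the alternatives. The scripts were tested on simulated data. Nothing says that replicates came from separate animals or cultures, so p-values measure only the spread between these samples. Same-numbered HOXA9 libraries in DMSO and benzarone deviated together (r = 0.39, 0.46 and 0.79). The main fits did not pair them, and the replicate block was an alternative only. The block fits the same replicate differences in both lines, so it does not pair the HOXA9 libraries alone. With the block 6 of 13375 genes and 0 members were called there.

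UMIs were summed over the cells of a condition; no cell was removed and no doublet caller was run. Genes named with values were the mitochondrial genes, the 5 largest rises and falls among called nuclear members (higher group's mean 10 CPM or more), the complex IV, Ndufa4, Atp5g and Ndufb4 isoforms, the 2 called list genes with the smallest p, and in single cells the 4 largest ratios each way at 20 CPM; others were chosen after their values were seen. The members, lists and tests were chosen with earlier results of these data known. A set of 6 nuclear copies of mitochondrial DNA was left out of the members and held 0.606% to 5.72% of the counts of both together. The acetylated histone and input samples were not analysed here.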

Additional observations from a re-analysis of the deposited data

How the results depend on the processing

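Of the recomputed counts and shares, 216 kept within 1.5 times their value or within 1 SD and 62 did not. Of the recomputed gene results 1532 stayed on the same side of the threshold, 257 lost the call, 40 gained it and 6 turned in sign. A turned sign was counted only where the main fit or the alternative called the gene. Turned signs of genes called in neither fit are among the 1532. With DESeq2 the calls among nuclear genes were 26 for MOZ-TIF2 against fresh (6 in the results above) and 9 for EYA1+HOXA9 against HOXA9 in DMSO (5), and among mitochondrial genes 10 for EYA1+HOXA9 against HOXA9 in benzarone (3), 2 for MOZ-TIF2 against empty vector (1) and 2 against fresh (1). Without the filter on low counts they were 2 for MOZ-TIF2 against fresh and 3 for benzarone in EYA1+HOXA9 (6) among nuclear genes, and 5 for EYA1+HOXA9 against HOXA9 in benzarone among mitochondrial genes. Fitted on only the groups compared, they were 13 for MOZ-TIF2 against fresh and 5 against empty vector (10) among nuclear genes, and 5 and 0 among mitochondrial genes, with 0 for EYA1+HOXA9 against HOXA9 in benzarone. In the c-Kit+ table same-numbered libraries did not deviate together (r from -0.093 to -0.011), and in EYA1+HOXA9 r was -0.06, -0.05 and 0.02. With the replicate block, nuclear calls were 11 for empty vector against fresh (26), 2 for MOZ-TIF2 against fresh, 5 for MOZ-TIF2 against empty vector, 6 for EYA1+HOXA9 against HOXA9 in DMSO, 3 for that in benzarone (4), and 4 for benzarone in EYA1+HOXA9, where mitochondrial calls went from 1 to 0. Calls over all genes moved too, here as main fit, DESeq2, no filter, only the groups compared and block. Empty vector against fresh had 40.7, 42.1, 25.5, 49.8 and 30.7%, and MOZ-TIF2 against fresh 23.7, 30.5, 16.1, 27.4 and 13.8%. MOZ-TIF2 against empty vector had 29.5, 35.2, 19.7, 21.6 and 21.6%. EYA1+HOXA9 against HOXA9 had 22.9, 24.7, 13.2, 23.0 and 24.4% in DMSO, and 25.3, 24.7, 15.0, 20.4 and 25.3% in benzarone. Benzarone in EYA1+HOXA9 had 29.4, 28.5, 16.8, 31.2 and 30.3%. Each library was also set against the libraries of each other group. Its best correlation was with its own number in 16 of 36 such cases in the lines, with 3 numbers a group, and in 0 of 12 in the c-Kit+ set. With 2 libraries a group the deviations are mirror images, so those 12 cases are not independent.

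Leaving out 1 library at a time, nuclear calls ranged from 0 to 22 for empty vector against fresh, 0 to 9 for MOZ-TIF2 against fresh, 4 to 10 for MOZ-TIF2 against empty vector, 0 to 19 for EYA1+HOXA9 against HOXA9 in DMSO, 2 to 6 for that in benzarone, 2 to 6 for benzarone in EYA1+HOXA9 and 0 to 2 for the interaction. Mitochondrial calls ranged from 0 to 7, 0 to 1, 1 to 7, 0 to 0, 0 to 10 and 0 to 1 in the first 6 of these. Without empty-vector replicate 1 the sign turned in 6 results, given here with the value without replicate 2 after it: 1.204 and -1.04 for mt-Co1, MOZ-TIF2 against empty-vector c-Kit+; 1.32 and -1.205 for mt-Nd5, MOZ-TIF2 against empty-vector c-Kit+; 1.18 and -1.23 for mt-Nd4l, MOZ-TIF2 against empty-vector c-Kit+; -1.09 and 1.15 for mt-Co1, empty-vector against fresh c-Kit+; -1.36 and 0.97 for mt-Nd4, empty-vector against fresh c-Kit+; and -1.31 and 1.21 for mt-Nd5, empty-vector against fresh c-Kit+. These 6 are only the turned signs of genes called in the main fit or in the fit without empty-vector replicate 1. Signs that turned in genes called in neither fit are not listed. At a fold of 1.5 in single cells, 24 nuclear genes in place of 42 were lower on day 5. On day 1, 0 mitochondrial genes in place of 1 were lower. With equal weight per cell 1 nuclear gene in place of 0 passed from day 1 to day 3. The nuclear share of fresh cells was 1.21% in place of 1.17% with mitochondrial genes left out of the total. Precision is limited by 2 or 3 libraries a group and, in single cells, by 1 sample per condition on days 1 and 3 and 1 sample for both conditions of day 5; the causes of these shifts were not tested.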
